A study of Homo sapiens with 6 samples.

Results

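The MAGE genes examined here are the 31 of 35974 genes in the deposited table whose name follows the pattern MAGE, a letter from A to H, a number and at most a final B, leaving out MAGEL2. Of these, 24 belong to type I (12 MAGEA, 9 MAGEB and 3 MAGEC genes) and 7 to type II (4 MAGED genes and MAGEE1, MAGEF1 and MAGEH1). The cells were SU-DHL-8, an established line of diffuse large B-cell lymphoma labelled as wild type for DNMT1. They received the inhibitor GSK3685032, a blocker of the maintenance DNA methyltransferase DNMT1 (3 libraries), or its solvent DMSO (3 libraries). The treatment labels of inhibitor replicates 2 and 3 name GSK3685033 and GSK3685034, while the series design names GSK3685032 alone; neither dose nor duration is stated in the sources used. All libraries come from 1 cell line, and no label says that they were separate cultures, so p-values measure the spread between libraries, which may be technical.

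MAGE proteins share a MAGE homology domain, through which many of them bind RING-type ubiquitin ligases and alter what those ligases act on. Type I genes lie on the X chromosome, are transcribed mainly in testis and placenta, and are silenced by promoter DNA methylation in most other tissues. Many tumours express them, and their peptides are recognised by T cells, which made them known as cancer-testis antigens. Type II genes are expressed in many tissues, and several act in neurons, kidney and genome maintenance.

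The libraries held 53846028 to 75304441 estimated counts. About 4 counts were taken as 1 read pair. This ratio was inferred from the excess of genes at counts of 4, 8 and 12 over neighbouring counts. Across all genes, 38.1% of the 20783 tested rose and 27.3% fell with the inhibitor, so that 65.4% were called in either direction (edgeR quasi-likelihood test, adjusted p at most 0.05, two-sided). The median log2 fold change was 0.14 over all tested genes and 0.51 over those of chromosome X, of which 51.9% were higher and 17.2% lower. DNMT1 itself fell by 1.38 on the log2 scale (edgeR adjusted p = 5.38e-08). All 7 B-cell markers were detected, with summed levels of 799 to 865 FPKM with the inhibitor and 869 to 886 FPKM with DMSO; FPKM is a fragment count scaled to transcript length and library size. Of the other lineages, none of the 2 T-cell and 5 myeloid markers in the table reached 1 FPKM in any library, whereas the 6 epithelial, stromal and endothelial markers summed to 3.05 to 4.61 FPKM with the inhibitor, mostly from KRT18 (2.65 ± 0.721 FPKM, SD, n = 3), and to 0.0988 to 0.146 FPKM with DMSO. The 4 germ-cell markers in the table summed to 115 to 149 FPKM with the inhibitor and 0.0146 to 0.116 FPKM with DMSO. Of the 4, 3 were tested and all 3 rose, beside 38.1% of all tested genes. With at most 16 DMSO counts each over the group, they passed the filter on low counts only through their inhibitor counts. Their calls were therefore nearly fixed in advance. Nearly all of the inhibitor sum came from DAZL (127.3 ± 16.8 FPKM, SD, n = 3). DAZL and SYCP3 reached 1 FPKM with the inhibitor, whereas PRM1 had 4 counts with the inhibitor and 3 with DMSO. The part of other cell types in the results below was not tested.

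Type I genes were silent with DMSO and most were expressed with the inhibitor. With DMSO, 22 of the 24 had 0 counts in all 3 libraries, and the others, MAGEA8 and MAGEB17, had 21 and 10 counts over the group. With the inhibitor, every type I gene had counts in at least 1 library, and 14, 18 and 17 of them reached 1 FPKM in replicates 1, 2 and 3, against 0 in each DMSO library. A level of 1 FPKM in every inhibitor library from 0 DMSO counts was reached by 14 of the 22. Of all 7927 genes in the table with 0 DMSO counts, 4.11% did so, and of the 1884 annotated as protein-coding 7.59%. In bulk RNA, fewer expressing cells and less RNA per cell cannot be told apart.

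Promoter windows are shown for genes that span the observed levels, since DNMT1 acts on CpG dinucleotides. Each is the 250 bases before the most upstream RefSeq start (GRCh38.p14), written 5′ to 3′ on the strand of the gene, with CpG in capitals. MAGEA4 and MAGEB2 had the highest levels with the inhibitor, MAGEA3 has the same window letter for letter as MAGEA6, MAGEB1 rose with a single CpG here, MAGEB18 stayed near 0, and MAGEF1 is the type II gene with the highest level.
MAGEA4, chrX:151912224-151912473, plus strand: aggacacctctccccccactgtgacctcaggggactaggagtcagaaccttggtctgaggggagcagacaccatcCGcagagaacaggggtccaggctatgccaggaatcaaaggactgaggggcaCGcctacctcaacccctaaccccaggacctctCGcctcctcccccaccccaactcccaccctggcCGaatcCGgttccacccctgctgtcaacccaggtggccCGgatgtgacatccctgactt
MAGEA3, chrX:152698544-152698793, plus strand: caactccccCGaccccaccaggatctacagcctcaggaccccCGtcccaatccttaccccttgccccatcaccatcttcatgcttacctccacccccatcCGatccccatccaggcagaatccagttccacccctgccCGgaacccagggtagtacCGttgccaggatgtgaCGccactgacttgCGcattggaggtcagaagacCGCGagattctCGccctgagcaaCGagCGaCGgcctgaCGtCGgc
MAGEB2, chrX:30215313-30215562, plus strand: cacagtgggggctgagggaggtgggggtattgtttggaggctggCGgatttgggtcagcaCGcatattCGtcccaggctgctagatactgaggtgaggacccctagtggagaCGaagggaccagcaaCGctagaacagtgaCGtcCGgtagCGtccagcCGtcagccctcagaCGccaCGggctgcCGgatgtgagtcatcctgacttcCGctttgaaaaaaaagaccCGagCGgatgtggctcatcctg
MAGEB1, chrX:30243481-30243730, plus strand: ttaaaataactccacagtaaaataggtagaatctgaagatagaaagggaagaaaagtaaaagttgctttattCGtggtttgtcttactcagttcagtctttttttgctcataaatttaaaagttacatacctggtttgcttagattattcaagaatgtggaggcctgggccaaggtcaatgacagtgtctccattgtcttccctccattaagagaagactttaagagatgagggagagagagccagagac
MAGEB18, chrX:26138093-26138342, plus strand: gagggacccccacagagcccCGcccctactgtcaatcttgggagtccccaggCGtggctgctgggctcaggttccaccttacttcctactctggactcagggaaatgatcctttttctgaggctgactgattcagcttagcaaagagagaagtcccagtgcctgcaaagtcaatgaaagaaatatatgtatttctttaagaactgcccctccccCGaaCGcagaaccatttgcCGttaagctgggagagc
MAGEF1, chr3:184712065-184712314, minus strand: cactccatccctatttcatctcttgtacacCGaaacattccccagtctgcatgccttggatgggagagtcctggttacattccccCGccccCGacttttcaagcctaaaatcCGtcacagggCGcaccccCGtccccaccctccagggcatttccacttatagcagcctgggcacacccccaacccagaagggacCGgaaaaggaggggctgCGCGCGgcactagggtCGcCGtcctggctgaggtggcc

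The CpG counts of these windows differed among genes with similar levels. MAGEA3 and MAGEB2 hold 15 CpGs each, MAGEF1 12, MAGEA4 6, MAGEB18 5 and MAGEB1 1. MAGEA4 has 5 annotated starts, whose windows hold 6, 7, 11, 12 and 14 CpGs, and the other annotated start of MAGEB1 holds 13, so which window was in use cannot be read from gene totals.

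**Figure D1:**
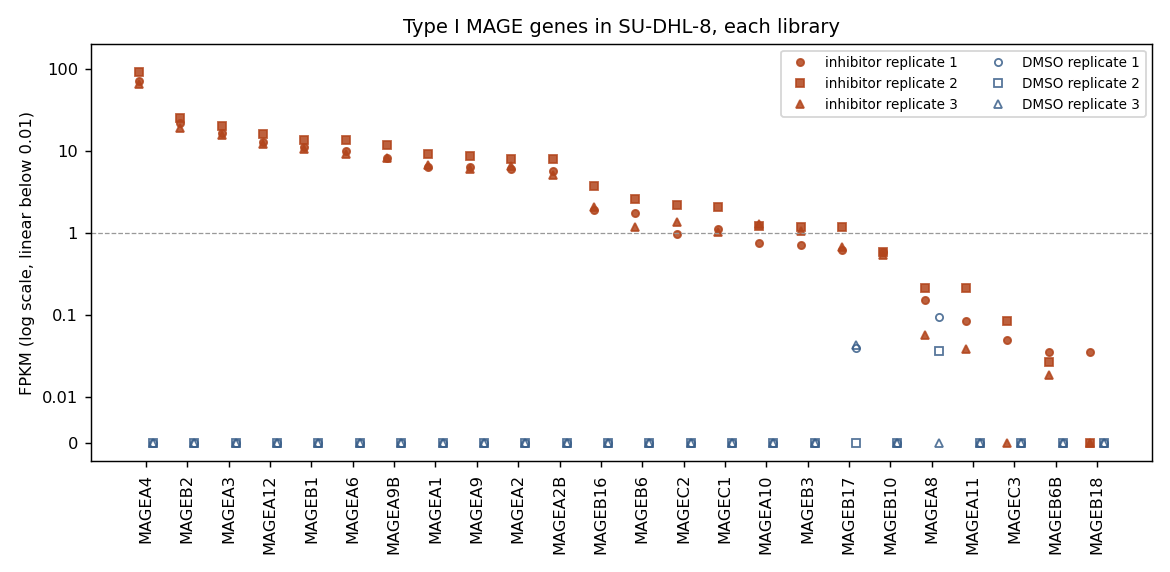
FPKM of the 24 type I MAGE genes (x axis, ordered by mean level with the inhibitor) in each library, on a log axis that is linear below 0.01. Filled points are the 3 inhibitor libraries and open points the 3 DMSO libraries, and the dashed line marks 1 FPKM. DMSO points lie at 0 except for MAGEB17 and MAGEA8.

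MAGEA4, whose protein is a target of T-cell therapies against solid tumours, had the highest type I level. It measured 70.7, 90.9 and 64.5 FPKM with the inhibitor, against 0 in all 3 DMSO libraries. The inhibitor libraries all lay far above DMSO, at least 4507-fold higher (bound set by 12 counts, or 3 read pairs, in the DMSO group; edgeR adjusted p = 2.62e-08). Of the 326 genes with 0 DMSO counts and at least 1 FPKM in every inhibitor library, it ranked 4 by mean level. Over the inhibitor libraries it made up 37.4% to 38.3% of the summed type I level.

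The next genes by level were spread over the MAGEA and MAGEB subfamilies. MAGEB2, whose protein binds the RNA of the stress granule factor G3BP1, measured 21.7, 25.4 and 18.8 FPKM with the inhibitor and 0 in every DMSO library, at least 627-fold higher (edgeR adjusted p = 4.98e-08). MAGEA3, a partner of the ligase TRIM28, measured 16.4, 20.3 and 15.6 FPKM with the inhibitor and 0 in every DMSO library, at least 549-fold higher (edgeR adjusted p = 4.60e-08). MAGEB2 was above MAGEA3 in each inhibitor library, though their ranges over libraries overlapped, and the order was not tested. MAGEA12 measured 12.9, 15.9 and 12.1 FPKM with the inhibitor, and 0 in each DMSO library. MAGEB1 measured 11.2, 13.5 and 10.5 FPKM with the inhibitor, and 0 in each DMSO library. These neighbours in rank overlapped as well, and both stood at least 415-fold above the DMSO floor.

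MAGEA6, a close relative of MAGEA3 that also binds TRIM28, measured 10.1, 13.6 and 9.17 FPKM with the inhibitor, against 0 in each DMSO library. MAGEA1, the founding member of the family and the first human tumour antigen defined by T cells, measured 6.44, 9.29 and 6.80 FPKM with the inhibitor and 0 in each DMSO library, at least 228-fold higher (edgeR adjusted p = 2.84e-07). Inhibitor replicate 2 was the highest of the group for both genes.

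Some members share most of their sequence, so their separate values depend on how the authors placed reads. Among GENCODE 29 transcripts, 88.0% of the 150-base windows of MAGEA2 and 77.9% of those of MAGEA2B occur in the other, with 150 bases being the read length. They averaged 6.82 ± 1.03 and 6.29 ± 1.58 FPKM with the inhibitor (SD, n = 3). For MAGEA9 and MAGEA9B the shares are 86.4% and 76.7%, and for the type II pair MAGED4 and MAGED4B 97.2% and 95.8%. The summed pair MAGEA2 and MAGEA2B reached 11.7, 16.04 and 11.6 FPKM with the inhibitor, and MAGEA9 and MAGEA9B 14.6, 20.4 and 14.4 FPKM. Both pairs were at 0 in every DMSO library. MAGEA3 and MAGEA6 share 27.1% and 25.6% of their windows, and 17 of the 31 members share none with any other gene.

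MAGEC1, MAGEC2 and several other MAGEB genes rose to low levels. MAGEC2, another TRIM28 partner, measured 0.988, 2.203 and 1.37 FPKM with the inhibitor, and MAGEC1 measured 1.13, 2.06 and 1.03 FPKM. Both were at 0 in every DMSO library, and both rose (at least 53.7-fold and 106-fold; edgeR adjusted p = 1.01e-05 and 3.97e-06). MAGEB16 measured 1.89, 3.69 and 2.08 FPKM and MAGEB6 1.76, 2.62 and 1.20 FPKM with the inhibitor, against 0 with DMSO. Replicate 2 was the highest inhibitor library for these 4 genes. MAGEA10 averaged 1.09 ± 0.291, MAGEB3 0.991 ± 0.241 and MAGEB10 0.569 ± 0.0306 FPKM with the inhibitor (SD, n = 3), all from 0 with DMSO, and all 3 rose (edgeR adjusted p at most 1.78e-05). MAGEB10 overlaps a pseudogene on the same strand, and MAGEB17 an unnamed lncRNA on the opposite strand. MAGEA12 overlaps CSAG4 on the same strand, with 33 counts for CSAG4 and 4878 for MAGEA12 over the inhibitor libraries. The sources used here do not say whether counting used the strand.

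MAGEB17 and MAGEA8 were the type I genes with DMSO counts. The first passed the filter on low counts only through its inhibitor counts, so its call was nearly fixed in advance. MAGEB17 measured 0.619, 1.18 and 0.683 FPKM with the inhibitor, against 0.0400, 0 and 0.0438 FPKM with DMSO. The groups did not overlap, and the ratio was 29.2 (95% counting interval 8.71 to 180, in read pairs; edgeR adjusted p = 0.000228). MAGEA8 measured 0.154, 0.212 and 0.0568 FPKM with the inhibitor, against 0.0941, 0.0367 and 0 FPKM with DMSO. Here the groups overlapped, and the log2 difference of 1.70 (SE 0.962) did not pass the test (edgeR adjusted p = 0.149).

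Another 4 type I genes stayed under the filter on low counts and were not tested. MAGEA11, a coregulator of the androgen receptor, measured 0.0846, 0.217 and 0.0388 FPKM with the inhibitor, and 0 with DMSO. MAGEC3 had 24 counts, MAGEB6B 9 and MAGEB18 4 over the 3 inhibitor libraries, and each had 0 over the DMSO libraries. The MAGEB18 counts came from inhibitor replicate 1 alone and amount to about 1 read pair.

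By the test, 19 of the 20 type I genes that passed the filter were higher and 0 lower (edgeR; also 0 at an unadjusted p of 0.05, by DESeq2 and by limma), beside 38.1% higher over all tested genes. Taking the bound for genes at 0 in DMSO, the median log2 fold change was 7.83, against 0.14 over all tested genes. The second median takes the fitted value of every gene, also of those at 0 in DMSO, so the measures are not alike. Of the 20, 18 had 0 DMSO counts and MAGEB17 had 10 over the group. These are the 19 called higher, and they could pass the filter only through their inhibitor counts. Their calls were therefore nearly fixed in advance and are not independent evidence. The FPKM of the groups did not overlap for 21 of all 24, beside 71.7% of all tested genes. The 24 include 4 untested genes, so these sets are not alike. With 0 in every DMSO library, any level in every inhibitor library counts as no overlap. MAGEA genes were higher in 10 of 11 tested, MAGEB genes in 7 of 7 and MAGEC genes in 2 of 2.

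Inhibitor replicate 2 gave the highest value for 21 of the 24 type I genes. Among the 326 genes with 0 DMSO counts and at least 1 FPKM in every inhibitor library, it was the highest for 52.5%, and among the 80 of these on chromosome X for 66.2%. The summed type I level was 184.5, 240.6 and 172.8 FPKM in inhibitor replicates 1, 2 and 3, against 0.134, 0.0367 and 0.0438 FPKM in DMSO replicates 1, 2 and 3. Why replicate 2 stood higher was not tested.

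Type I levels differed between places on the X chromosome, given here as the deposited coordinates, read as GRCh38. The segment from 151912495 to 152138578, with MAGEA4 and MAGEA10, summed to 76.5 ± 13.8 FPKM with the inhibitor (SD, n = 3), nearly all of it from MAGEA4. The segment from 152698767 to 153183880 holds MAGEA3, MAGEA2B, MAGEA12, MAGEA2, MAGEA6 and MAGEA1 and summed to 62.6 ± 10.9 FPKM, with members between 6.29 and 17.5 FPKM. In the segment from 149581653 to 149885835, MAGEA9B and MAGEA9 averaged 9.44 ± 2.01 and 7.03 ± 1.43 FPKM while MAGEA11 and MAGEA8 averaged 0.113 ± 0.0923 and 0.141 ± 0.0785 FPKM. On the short arm, MAGEB2, MAGEB3 and MAGEB1 (30215563 to 30252038) summed to 34.7 ± 5.00 FPKM, but MAGEB18, MAGEB6B and MAGEB6 (26138343 to 26195646) to 1.898 ± 0.720 FPKM. The 3 MAGEC genes (141838316 to 142205290) summed to 2.97 ± 1.20 FPKM. Within the last 3 segments named, means of single genes ranged from 0.990 to 22.0, from 0.0118 to 1.86 and from 0.0449 to 1.52 FPKM.

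Several genes that start head to head with MAGEA genes also had 0 DMSO counts and a measured level with the inhibitor. CSAG1, a cancer-testis gene whose start lies 22 bases from that of MAGEA12 on the other strand, measured 3.72, 4.31 and 3.81 FPKM with the inhibitor and 0 in each DMSO library, at least 77.1-fold higher (edgeR adjusted p = 8.30e-07). CSAG3 lies 37 bases from MAGEA2, and its close copy CSAG2 37 bases from MAGEA2B. They averaged 1.82 ± 0.473 and 0.820 ± 0.208 FPKM with the inhibitor (SD, n = 3) and 0 with DMSO. MAGEA4-AS1, whose start lies 1040 bases from that of MAGEA4, averaged 2.25 ± 0.306 FPKM with the inhibitor and 0 with DMSO. Each partner was lower than its MAGE gene in all 3 inhibitor libraries, with mean ratios from 3.45 for MAGEA12 over CSAG1 to 53.5 for MAGEA3 over an unnamed gene that was not tested. CSAG2, CSAG3 and MAGEA4-AS1 were named after their values were seen.

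**Figure D2:**
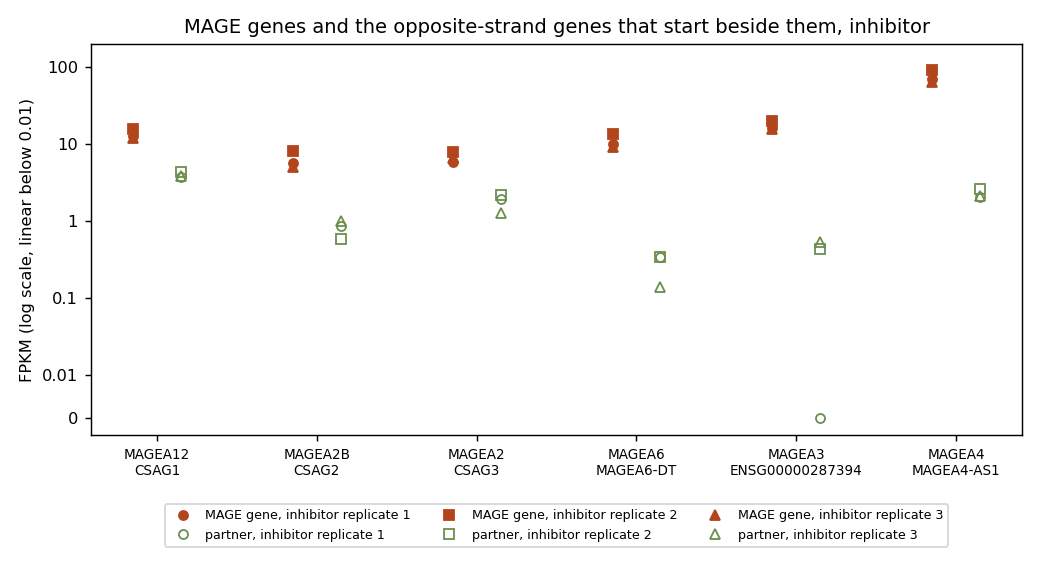
FPKM (log axis, linear below 0.01) of 6 MAGEA genes, filled, and of the genes that start next to them on the opposite strand, open, in each inhibitor library. All of these genes had 0 DMSO counts, and each MAGEA gene lies above its partner.

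Within 100 kb of a type I member the table holds 37 other genes, of which 19 were tested. Of these, 13 were higher and 0 lower (edgeR; also 0 lower at an unadjusted p of 0.05, by DESeq2 and by limma), beside 51.9% higher and 17.2% lower over tested genes of chromosome X. Of the 13 called higher, 6 had 0 DMSO counts and passed the filter only through their inhibitor counts. Among the 13 tested neighbours with DMSO counts 7 were higher. These 7 include lncRNAs with 10 and 36 DMSO counts over the group, which also passed the filter only through their inhibitor counts. The chromosome X share also covers genes with 0 DMSO counts, so it is not a like background for these 7. Whether they differ from like genes of chromosome X was not tested. Of the 5 neighbours with the highest levels that were expressed with DMSO, 3 rose and the other two were not called. CETN2, which encodes a centrin of the centrosome, averaged 4.56 ± 0.667 FPKM with the inhibitor and 2.66 ± 0.326 FPKM with DMSO (SD, n = 3 each; log2 change 0.77, SE 0.169, edgeR adjusted p = 0.00258). TMEM185A and NSDHL, a sterol synthesis enzyme, rose by 0.48 and 0.31 on the log2 scale (edgeR adjusted p = 0.00561 and 0.0194). The call of NSDHL was lost without inhibitor replicate 1 and without DMSO replicate 3 (edgeR adjusted p = 0.0662 and 0.0582), and that of TMEM185A with quantile normalization (log2 change 0.24, limma adjusted p = 0.0591). EOLA2 and IDS, the lysosomal iduronate sulfatase, were not called, with log2 changes of 0.18 and 0.00 (edgeR adjusted p = 0.128 and 0.988). With upper-quartile scaling both were called higher, at 0.35 and 0.17 (edgeR adjusted p = 0.00893 and 0.0191). EOLA2 was also called with quantile normalization, at 1 FPKM or more and without DMSO replicate 3 (adjusted p = 0.0145 by limma, and 0.0252 and 0.0391 by edgeR).

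Type II genes did not behave as a single group. MAGED1, MAGED2, MAGEF1 and MAGEH1, 4 of the 7, were at or above 1 FPKM in all 6 libraries. MAGED4 and MAGED4B had 0 DMSO counts and MAGEE1 had 16. The description of type II as ubiquitous concerns many tissues and cannot be judged from 1 cell line. By the test, 5 of 6 were higher and 1 was lower, beside 38.1% and 27.3% over all tested genes; without inhibitor replicate 2, 3 were called higher. MAGED4 and MAGED4B passed the filter only through their inhibitor counts, so their calls were nearly fixed in advance. For genes at 1 FPKM or more in every DMSO library the shares were 25.9% higher and 46.8% lower.

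**Figure D3:**
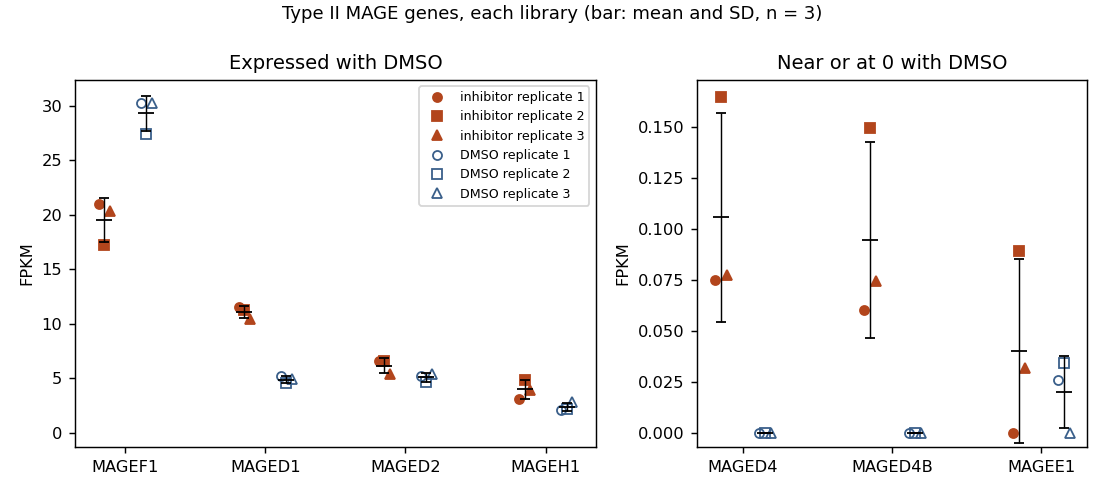
FPKM of the 7 type II MAGE genes in each library on linear axes that start near 0, the 4 genes expressed with DMSO at left and the 3 near or at 0 with DMSO at right, on a scale of their own. Filled inhibitor points stand left of open DMSO points, and bars give the mean and SD (n = 3). MAGEF1 lies lower and MAGED1 higher with the inhibitor without overlap, and MAGED4, MAGED4B and MAGEE1 stay below 0.2 FPKM.

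MAGEF1, which binds the ligase NSMCE1 and acts on the iron-sulfur assembly factor MMS19, was the type II gene with the highest level in both groups. It measured 20.95, 17.2 and 20.3 FPKM with the inhibitor, against 30.2, 27.4 and 30.2 FPKM with DMSO. All inhibitor libraries lay below all DMSO libraries, and the gene fell by 0.59 on the log2 scale (SE 0.0837, edgeR adjusted p = 0.000162). It is also the single member outside chromosome X, on chromosome 3.

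MAGED1, known as NRAGE for its binding of the neurotrophin receptor p75, moved the other way. It measured 11.6, 11.2 and 10.45 FPKM with the inhibitor, against 5.19, 4.54 and 4.91 FPKM with DMSO. The groups lay far apart relative to their spread, and the log2 difference was 1.18 (SE 0.0681, edgeR adjusted p = 4.37e-07).

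MAGEH1 and MAGED2 changed less. MAGEH1 measured 3.14, 4.88 and 3.90 FPKM with the inhibitor, against 2.07, 2.21 and 2.83 FPKM with DMSO. The groups did not overlap (log2 change 0.73, SE 0.212, edgeR adjusted p = 0.0122), but without inhibitor replicate 2 the call was lost (edgeR adjusted p = 0.0517). MAGED2, mutated in a transient form of antenatal Bartter syndrome, measured 6.54, 6.54 and 5.41 FPKM with the inhibitor, against 5.17, 4.65 and 5.39 FPKM with DMSO. The lowest inhibitor library was just above the highest DMSO library. The log2 change of 0.28 (SE 0.110, edgeR adjusted p = 0.0488) was close to the threshold and lost its call under 7 of 18 alternatives, among them 5 of the 6 fits that left out 1 library (edgeR adjusted p = 0.164 and 0.135 without inhibitor replicates 1 and 2, and 0.095, 0.139 and 0.0538 without DMSO replicates 1, 2 and 3). MAGED2 holds the small nucleolar RNA gene SNORA11 on the same strand.

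MAGED4 measured 0.0749, 0.165 and 0.0776 FPKM with the inhibitor and MAGED4B 0.0601, 0.150 and 0.0745 FPKM, each against 0 in all DMSO libraries. Replicate 2 was the highest inhibitor library for both. Both were called higher (at least 9.31-fold and 8.63-fold, edgeR adjusted p = 0.000287 and 0.000329), but as near-identical copies they are a single observation at a low level. MAGEE1, a member of the dystrophin-associated complex, had 27 counts with the inhibitor and 16 with DMSO and was not tested.

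Type I made up most of the summed MAGE level with the inhibitor, and type II nearly all of it with DMSO. The type II sum was 42.3, 40.2 and 40.3 FPKM with the inhibitor, against 42.7, 38.9 and 43.4 FPKM with DMSO. These ranges overlapped (log2 ratio of means −0.02 by FPKM), but the ratio was 0.35 when CPM were summed, which weights long transcripts more. The type I share of the family sum was 81.3%, 85.7% and 81.1% with the inhibitor, against 0.313%, 0.0943% and 0.101% with DMSO. By subfamily, MAGEA summed to 155.8 ± 28.2, MAGEB to 40.5 ± 6.94 and MAGEC to 2.97 ± 1.20 FPKM with the inhibitor (SD, n = 3), against 0.0436 ± 0.0474, 0.0279 ± 0.0243 and 0 FPKM with DMSO. With 3 libraries against 3, an exact permutation test of any such sum cannot go below p = 0.1, so none is given.

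Within type II the makeup shifted. MAGEF1 made up 49.5%, 42.7% and 50.5% of the type II sum with the inhibitor, against 70.8%, 70.5% and 69.7% with DMSO. MAGED1 made up 27.3%, 27.9% and 26.0% with the inhibitor, against 12.2%, 11.7% and 11.3% with DMSO. Neither share overlapped between the groups.

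The median CpG content was lower in type I than in type II windows, though the ranges overlapped. RefSeq windows were found for 27 of the 31 members, 21 of type I and 6 of type II, and not for MAGEA1, MAGEA10, MAGEB17 and MAGEH1. Type I windows held 1 to 18 CpGs with a median of 8, and type II windows 6 to 22 with a median of 12, beside a median of 10 over 27305 genes. The median ratio of observed to expected CpG was 0.345 in type I, 0.597 in type II and 0.554 over all. Of type I, the 13 at 1 FPKM or more in every inhibitor library had a median of 9 CpGs and the other 8 a median of 5.5. The spread within each was wide: MAGEA11 holds 18 CpGs and stayed near 0, though its window lies inside the deposited gene body, and MAGEB1 holds 1. The window of MAGEC3 also lies inside its deposited gene body. All these windows are of the most upstream start. Other annotated starts of MAGEA12 and MAGEB1 hold 13 CpGs each, so the medians depend on the start used. The identical windows of MAGEA3 and MAGEA6, and of MAGEA9 and MAGEA9B, were each counted. No methylation was measured in these libraries.

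**Figure D4:**
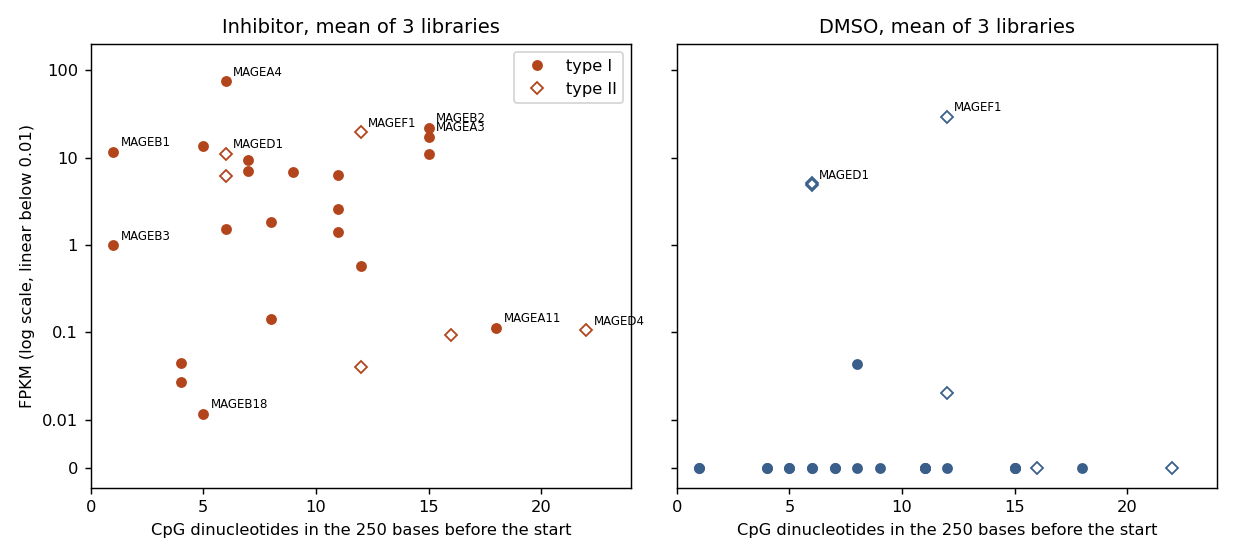
Number of CpG dinucleotides in the 250 bases before the RefSeq start (x axis) and mean FPKM of 3 libraries (y axis, log scale, linear below 0.01) of the 27 members with a window, with the inhibitor at left and DMSO at right. Filled points are type I and open diamonds type II. With the inhibitor, members with few and with many CpGs are found at both high and low levels, and with DMSO nearly all type I points lie at 0.

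The windows were also searched on both strands for GGAA, the core bound by ETS factors, for CCGGAA, which contains GGAA, and for GGGCGG, the GC box bound by SP1. GGAA occurred in 21 of 21 type I and 6 of 6 type II windows, beside 92.8% of all windows. CCGGAA occurred in 3 type I windows, those of MAGEA3, MAGEA6 and MAGEB6, and in that of MAGEF1, beside 14.8% of all. GGGCGG occurred in 7 type I windows (33.3%) and 5 type II windows (83.3%), beside 42.2% of all.

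Of 12 genes for DNA methylation, linked chromatin silencing and transcription factors named with type I promoters, 3 rose and 7 fell, beside 38.1% and 27.3% of all tested genes, and 25.9% and 46.8% of those at 1 FPKM or more in every DMSO library. Their median log2 change was −0.52, beside 0.14 over all tested genes and −0.17 over those expressed with DMSO. HELLS, a chromatin remodeller needed for DNA methylation, fell by 2.03, ETS1 by 0.96 and CTCF by 0.79 on the log2 scale, and DNMT3A rose by 0.83 (edgeR adjusted p at most 9.92e-06). CTCFL, a testis paralog of CTCF also called BORIS and reported to act at MAGEA promoters, was present in both groups. It averaged 1.67 ± 0.199 FPKM with the inhibitor and 1.48 ± 0.0261 FPKM with DMSO (SD, n = 3 each) and was not called (log2 change 0.16, edgeR adjusted p = 0.209). It was called higher with upper-quartile scaling and at 1 FPKM or more (log2 change 0.33 and 0.26, edgeR adjusted p = 0.0200 and 0.0492), and was at −0.15 with quantile normalization (limma adjusted p = 0.211). It was named after its values were seen.

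Of 22 ubiquitin ligases and other partners of MAGE proteins, 21 were tested, and 5 rose and 11 fell, beside 38.1% and 27.3% of all tested genes, with a median log2 change of −0.15. Of genes at 1 FPKM or more in every DMSO library, 25.9% rose and 46.8% fell. Every partner that fell met this level, but MKRN3, EID3 and LNX1, which rose, did not. The share of partners that fell is therefore not of a like set, and a difference from this background was not tested. With upper-quartile scaling or quantile normalization 6 fell. NUDT21, a factor of alternative polyadenylation, averaged 21.2 ± 1.84 FPKM with the inhibitor and 38.2 ± 0.705 FPKM with DMSO (SD, n = 3 each; log2 change −0.86, edgeR adjusted p = 8.28e-07). SMC5, of the SMC5/6 complex, fell by 0.74 on the log2 scale (edgeR adjusted p = 2.33e-05). TRIM28, the ligase bound by MAGEA3, MAGEA6 and MAGEC2 and chosen after its values were seen, averaged 110.9 ± 6.82 FPKM with the inhibitor and 133 ± 3.60 FPKM with DMSO (log2 change −0.27, edgeR adjusted p = 0.00186). With upper-quartile scaling it was not called (edgeR adjusted p = 0.132).

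The partners that rose had low DMSO levels in several cases. MKRN3 and EID3, with 0 and 30 DMSO counts over the group, passed the filter only through their inhibitor counts. Their calls were therefore nearly fixed in advance. MKRN3, an imprinted ligase gene that acts in the timing of puberty, averaged 1.05 ± 0.184 FPKM with the inhibitor and 0 with DMSO, at least 132-fold higher (SD, n = 3; edgeR adjusted p = 5.07e-07). EID3, a testis form of the NSMCE4 subunit, averaged 1.84 ± 0.283 FPKM with the inhibitor and 0.0896 ± 0.0723 FPKM with DMSO (log2 change 4.25, edgeR adjusted p = 3.03e-05). LNX1 averaged 3.15 ± 0.263 FPKM with the inhibitor and 0.810 ± 0.185 FPKM with DMSO (log2 change 1.95, SE 0.166, edgeR adjusted p = 5.26e-06).

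Of the 4 genes with a MAGE homology domain but another name, 3 were tested, and 2 rose and 1 fell, beside 38.1% and 27.3% of all tested genes. The 2 that rose, NDN and TRO, had 0 and 25 DMSO counts over the group. They passed the filter only through their inhibitor counts, so their calls were nearly fixed in advance. NSMCE3, a subunit of the SMC5/6 complex, averaged 5.20 ± 0.498 FPKM with the inhibitor and 6.97 ± 0.562 FPKM with DMSO (log2 change −0.43, SE 0.0887, edgeR adjusted p = 0.00187). NDN, the imprinted gene of necdin, averaged 1.09 ± 0.539 FPKM with the inhibitor and 0 with DMSO, at least 36.8-fold higher (edgeR adjusted p = 2.76e-05). TRO, which encodes trophinin, averaged 0.424 ± 0.145 FPKM with the inhibitor and 0.0154 ± 0.00950 FPKM with DMSO (log2 change 4.61, edgeR adjusted p = 2.41e-05). MAGEL2 had 10 counts with the inhibitor and 0 with DMSO and was not tested.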

How the data were processed

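Poly(A) RNA of 6 libraries was sequenced in pairs of 150 bases, per the labels' protocols. Estimated counts and FPKM per gene are the values the authors deposited; per the submitters' processing notes the tools included HISAT2 2.2.1, StringTie 2.1.6, cutadapt 1.9, edgeR and DESeq2. The notes name the build mm10, whereas the gene IDs are human. The use of strand in counting is not stated there.

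Counts, whole as deposited, were tested in R 4.3.3 with edgeR 4.0.16 (filterByExpr, TMM factors, quasi-likelihood test, two-sided, Benjamini-Hochberg over 20783 genes, threshold 0.05). The SE was taken as |log2 fold change|/√F. Alternatives used DESeq2 1.42.0 and limma 3.58.1, and the fit was tested on simulated data. Libraries held about 13461507 to 18826110 read pairs at 4 counts each. Folds against 0 DMSO counts are bounds from TMM-scaled CPM, with the DMSO group set to 12 counts (3 read pairs); intervals and bounds cover counting error only. Replicate pairs of a group varied 3.3 to 6.83 times more than sampling, so none was taken as a duplicate.

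Every MAGE member is named, with DNMT1, the 4 other homology domain genes, up to 5 called genes with the largest change in each of the partner and regulator lists (at 1 FPKM or more in a group), and the 6 neighbours with the highest inhibitor level. Members and lists were chosen with earlier results of these data known. A planned comparison of protein sequences was not made; shared 150-base windows of GENCODE 29 transcripts were used instead. Promoter windows are from RefSeq (GRCh38.p14).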

Additional observations from a re-analysis of the deposited data

How the results depend on the processing

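Of 445 fitted values of 26 members under 18 alternatives, 435 kept direction and call, 0 reversed and 10 lost the call (7 for MAGED2, the others for MAGEH1 and MAGED4B). The count of type II genes called higher, 5 as reported, was 3 with limma on log2(FPKM + 0.5), + 0.1, + 1 or quantile normalized values, at 1 FPKM or more, with counts divided by 4 and with inhibitor replicate 1 alone; leaving out 1 library gave 3 to 5. Ligases and partners called lower numbered 6 with upper-quartile scaling and with quantile normalization, against 11. At 1 FPKM or more, 4826 genes were called higher, against 7918, and 8 neighbours, against 13; leaving out 1 library gave 7481 to 8065 and 14 to 18. Summed CPM gave a type II log2 ratio of 0.35 and a type I share of 79.5%; leaving out 1 library gave −0.07 to 0.01 and 81.2% to 83.5%. CTCFL was at −0.15 with quantile normalization, and IDS, ranging from −0.029 to 0.041 when 1 library was left out, at −0.015, −0.025, −0.029 and −0.019 without inhibitor replicates 1 and 2 and DMSO replicates 1 and 3; the cause was not tested. The median of all genes moved to 0.31 with upper-quartile scaling and −0.09 with quantile normalization, against 0.14.

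No label says that same-numbered libraries were handled together. Correlations of their deviations were 0.0, 0.07 and −0.06, and those of libraries with unlike numbers ran from −0.08 to 0.09. With 3 libraries in each group, such values cannot decide whether the libraries were paired. With the replicate block 7448 genes were called higher and 5368 lower, type I stayed at 19 higher, type II at 4, and MAGED2 had a log2 change of 0.27 (edgeR adjusted p = 0.0818).

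Genes under about 12 counts over a group, such as MAGEB18 and MAGEB6B, are at the limit of this depth.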
